A study of Mus musculus with 48 samples.

Results

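Cohesin was mapped through its SMC3 subunit in mouse embryonic stem cells whose CTCF carried the substitution R339Q, and set against the same map in cells with wild-type (WT) CTCF. The SMC3 peak list of R339Q cells and that of WT cells were chosen by their labels, which gives 2 of 22 peak lists, 4 of 48 samples and 166940 of 1444924 peaks. A WT peak was called kept where an R339Q peak overlapped it by at least 1 bp, and lost where none did. An R339Q peak with no WT peak under it was called gained.

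The R339Q cells and the WT cells came from a single degron line of E14Tg2a cells (129/Ola strain), in which endogenous CTCF carries an auxin-inducible degron. Both were treated for 2 days with 500 µM IAA, which removes the endogenous protein, and 1 µg/ml doxycycline, which switches on a FLAG-tagged Ctcf transgene of mutant or WT sequence. The R339Q and WT groups therefore shared the degron, the drugs and a transgene in place of the normal gene, and the labels do not say whether each line was 1 clone or many. ChIPmentation, an immunoprecipitation in which a transposase adds the sequencing adapters on the beads, was done with antibodies to SMC3, to FLAG and, in WT cells, to CTCF. Each list pools 2 replicates, so there is no spread between replicates and no test of R339Q against WT, and the 95% Wilson intervals in parentheses cover counting error over peaks alone.

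Cohesin is a ring complex that extrudes chromatin loops and holds sister chromatids together, and SMC3 is part of its ring. CTCF binds a long motif through its row of zinc fingers and halts extruding cohesin at that place, which sets loop ends and domain borders. Where CTCF is taken away, cohesin stays on chromatin but no longer collects at CTCF sites. R339 lies in this row of zinc fingers.

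The R339Q SMC3 list held 94978 peaks of median width 172 bp, and the WT SMC3 list held 71962 peaks of median width 222 bp. The FLAG lists held 18808 peaks in R339Q and 15392 in WT. The CTCF antibody lists of WT cells were larger, with 116973 peaks in treated and 175815 in untreated cells. A missing FLAG peak does not by itself show that the tagged CTCF was absent. Depth per library is unknown and bears on how many peaks a list holds. The peak names of the R339Q SMC3 list carry the library tag b2, and those of the WT SMC3 list carry b1. The tag differs wherever the genotype does, so genotype and tag cannot be told apart in any comparison of the R339Q and WT SMC3 lists. The library codes in the R339Q SMC3 names also differ from those in the R339Q FLAG names, whereas the WT SMC3 and WT FLAG names share theirs. Chromosome 6 held 10.4% of the R339Q SMC3 peaks and 12.2% of the WT SMC3 peaks, against 7.03% of the R339Q FLAG peaks and 6.95% of the WT FLAG peaks.

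A few promoters, picked because they hold the CTCF core letters, give examples of lost, kept and gained cohesin sites. The 250 bases before the transcription start (RefSeq, GRCm38.p6, the assembly of mm10) are printed 5′ to 3′ on the strand of the gene, with a match to the CTCF core letters or to their reverse complement in capitals. The core is a run of 12 letters that reads CCA, then 2 free letters, AG, 2 free letters and GGC. At the first 3 promoters WT FLAG and WT SMC3 were present, and R339Q FLAG and R339Q SMC3 were both absent.
C1qbp, encoding a mitochondrial matrix protein, minus strand, chr11:70983027-70983276: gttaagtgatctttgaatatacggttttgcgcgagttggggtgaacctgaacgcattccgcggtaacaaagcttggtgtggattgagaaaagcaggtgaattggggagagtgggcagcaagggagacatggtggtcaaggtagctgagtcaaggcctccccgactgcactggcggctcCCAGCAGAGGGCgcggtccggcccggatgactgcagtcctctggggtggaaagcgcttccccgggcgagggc
Gfm1, encoding a mitochondrial elongation factor, plus strand, chr3:67429865-67430114: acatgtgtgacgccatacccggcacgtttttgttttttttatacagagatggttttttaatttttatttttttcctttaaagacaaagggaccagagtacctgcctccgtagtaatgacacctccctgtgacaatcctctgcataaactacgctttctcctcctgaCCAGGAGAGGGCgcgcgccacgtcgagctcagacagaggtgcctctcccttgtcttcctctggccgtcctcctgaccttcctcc
Noc3l, encoding a nucleolar protein, minus strand, chr19:38819238-38819487: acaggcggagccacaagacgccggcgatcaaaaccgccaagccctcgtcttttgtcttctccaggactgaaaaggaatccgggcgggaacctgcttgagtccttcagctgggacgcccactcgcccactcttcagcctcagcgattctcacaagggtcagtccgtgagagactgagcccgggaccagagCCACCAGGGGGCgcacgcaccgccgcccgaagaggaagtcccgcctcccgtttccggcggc
At the next 2 promoters R339Q FLAG was present and SMC3 was kept.
Radil, encoding an effector of the small GTPase Rap, minus strand, chr5:142551099-142551348: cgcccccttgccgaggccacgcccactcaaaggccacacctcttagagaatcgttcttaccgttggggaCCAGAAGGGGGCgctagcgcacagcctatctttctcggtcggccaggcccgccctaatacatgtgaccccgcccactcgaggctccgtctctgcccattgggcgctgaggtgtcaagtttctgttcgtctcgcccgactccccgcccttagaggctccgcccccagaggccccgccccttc
Hs1bp3, encoding a binding partner of the adaptor HS1, plus strand, chr12:8313183-8313432: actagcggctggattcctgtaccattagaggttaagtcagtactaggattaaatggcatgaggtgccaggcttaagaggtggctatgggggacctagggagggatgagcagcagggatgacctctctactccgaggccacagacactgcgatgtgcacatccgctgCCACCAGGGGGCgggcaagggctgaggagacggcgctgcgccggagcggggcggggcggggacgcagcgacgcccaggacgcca
At the next promoter R339Q FLAG was absent and SMC3 was kept all the same, and at the last one both FLAG lists held a peak, and SMC3 was present in R339Q cells and absent in WT cells.
Mgat5b, encoding a glycosyltransferase, plus strand, chr11:116918613-116918862: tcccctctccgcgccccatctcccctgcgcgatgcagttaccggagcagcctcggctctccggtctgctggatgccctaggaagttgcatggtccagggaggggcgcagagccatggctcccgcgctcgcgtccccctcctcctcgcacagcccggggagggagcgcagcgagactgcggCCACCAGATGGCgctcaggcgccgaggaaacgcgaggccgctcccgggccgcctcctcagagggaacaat
Dennd6b, encoding a DENN-domain protein, minus strand, chr15:89196475-89196724: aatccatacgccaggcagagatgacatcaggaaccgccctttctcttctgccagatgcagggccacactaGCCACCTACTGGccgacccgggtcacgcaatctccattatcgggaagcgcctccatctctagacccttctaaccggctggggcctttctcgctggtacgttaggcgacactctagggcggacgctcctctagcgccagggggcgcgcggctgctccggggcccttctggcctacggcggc
The capitals of Noc3l, where SMC3 was lost, and of Hs1bp3, where it was kept, are the same 12 letters on the strand of the gene.

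The core letters were searched on both strands of 32851 promoter windows of 300 bp (250 bases before to 50 after the start), and 2.43% of all windows held them (797 windows). Among windows overlapped by WT SMC3 peaks at WT FLAG peaks, the share was 22.7% for kept peaks with R339Q FLAG (102 of 450, 19.04 to 26.8) and 12.9% for kept peaks without it (26 of 202, 8.94 to 18.2). It was 16.0% for lost peaks without R339Q FLAG (15 of 94, 9.92 to 24.7) and 21.4% for lost peaks with it (9 of 42, 11.7 to 35.9). Kept and lost promoters at WT FLAG peaks thus had overlapping intervals, which with 94 and 42 lost windows does not show that their shares were alike. The intervals of the kept peaks with and without R339Q FLAG did not overlap. Windows under SMC3 peaks away from CTCF held the letters at about the rate of all promoters, 1.64% where SMC3 was kept and 1.96% where it was lost. Under gained R339Q SMC3 peaks the share was 10.0% with R339Q FLAG (5 of 50, 4.35 to 21.4) and 1.87% without it (30 of 1602). The Dennd6b example lies at a WT FLAG site, a class that held 0.686% of gained peaks.

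In R339Q cells cohesin was found again at about 1 of every 2 WT peaks, and at nearly 4 of 5 of those that carried WT FLAG. Of 71962 WT SMC3 peaks, 36311 were kept (50.5%, 50.1 to 50.8) and 35651 were lost, a background of 49.5% lost over the list. With strength not held fixed, kept shares fell into an order by class of site. At WT FLAG peaks 9752 of 12363 SMC3 peaks were kept (78.9%, 78.2 to 79.6). At other CTCF antibody peaks, those bound in treated or untreated WT cells but without WT FLAG, 11768 of 22226 were kept (52.9%, 52.3 to 53.6). Away from both, 14791 of 37373 were kept (39.6%, 39.1 to 40.1). Peaks away from CTCF made up 63.3% of the lost peaks and 51.9% of all WT SMC3 peaks, whereas peaks at WT FLAG sites made up 7.32% of the lost peaks and 17.2% of all.

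**Figure D1:**
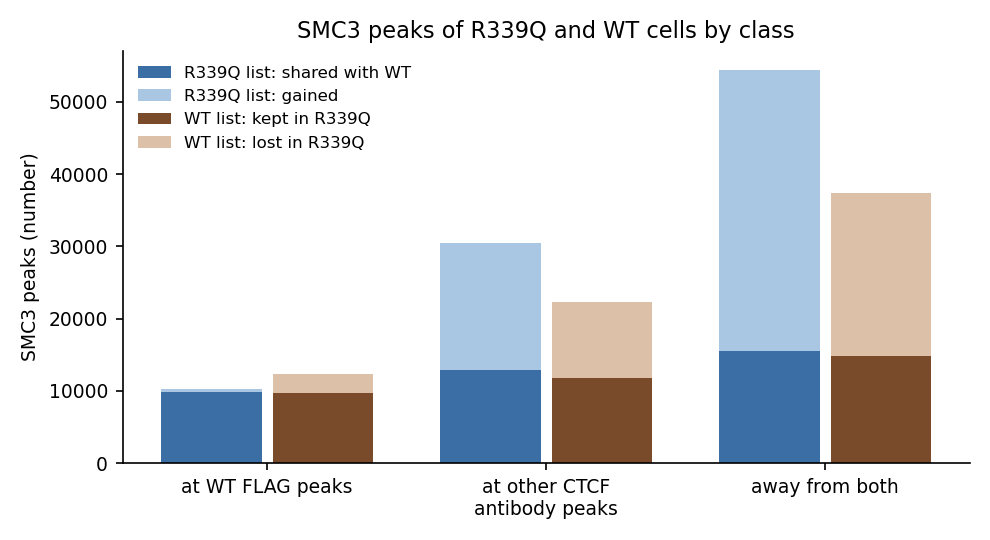
Number of SMC3 peaks (vertical axis) in the R339Q list (left bar of each pair, blue) and the WT list (right bar, brown) by class of site, with dark parts for peaks found in both lists and pale parts for peaks gained in R339Q or lost from WT. At WT FLAG peaks 389 of 10240 R339Q peaks were gained and 2611 of 12363 WT peaks were lost, and away from CTCF the gained and lost parts were the larger ones.

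Strong cohesin peaks were kept and weak ones were often not. In the weakest decile of the WT list by the peak caller's value 29.1% of SMC3 peaks were kept, against 93.7% in the strongest decile. The same held within each class. Away from CTCF the share went from 25.8% in the weakest decile to 95.3% in the strongest, though that last decile held 64 such peaks. At other CTCF antibody peaks the share was 37.2% in the weakest decile and 84.7% in the strongest, and at WT FLAG peaks it was 30.4% and 94.1%. The order of the classes was not the same in every decile. In the eighth, 51.7% were kept at WT FLAG peaks, 67.3% at other CTCF antibody peaks and 61.7% away from both. In the ninth the shares were 70.5%, 74.1% and 78.3%. Peaks at WT FLAG sites were the strong ones: their median value was 7.51 where kept and 4.28 where lost, against 3.13 and 2.83 away from CTCF. They were also wider, with a median of 524 bp where kept and 245 bp where lost, against 242 bp and 172 bp away from CTCF.

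A lost peak at a WT FLAG site was seldom replaced close by. The nearest R339Q SMC3 peak lay at a median distance of 14474 bp from the lost peaks at WT FLAG sites, and 8.89% of them had one within 500 bp. Around lost peaks away from CTCF the median distance was 3499 bp, with 22.2% within 500 bp, and around those at other CTCF antibody peaks it was 1285 bp, with 31.4% within 500 bp. SMC3 peaks themselves were sparser around the WT FLAG sites that lost them, with a median of 8769 bp to the next WT SMC3 peak, against 3538 bp away from CTCF.

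Cohesin was kept most often where the mutant CTCF itself was found. Of the WT SMC3 peaks at WT FLAG sites, 60.0% also overlapped an R339Q FLAG peak. SMC3 was kept at 93.4% of these (6927 of 7420, 92.8 to 93.9) and at 57.2% of the sites without R339Q FLAG (2825 of 4943, 55.8 to 58.5), a difference of 36.2 percentage points. Of the 2611 SMC3 peaks lost at WT FLAG sites, 493 had an R339Q FLAG peak (18.9%). At other CTCF antibody peaks SMC3 was kept at 74.4% of those with R339Q FLAG (2391 of 3215) and at 49.3% of those without it (9377 of 19011). Away from WT FLAG and the CTCF antibody, R339Q FLAG lay under few WT SMC3 peaks, and the shares kept were 46.5% with it (296 of 637) and 39.5% without it (14495 of 36736).

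At WT FLAG sites the gap between sites with and without R339Q FLAG was present in each of the 10 deciles of WT SMC3 strength. In the weakest decile 53.3% of SMC3 peaks at WT FLAG sites were kept with R339Q FLAG (16 of 30) and 20.8% without it (15 of 72). In the ninth decile the shares were 90.5% and 50.1%, and in the strongest decile 99.2% and 82.0%. Away from CTCF the order changed with strength: in the fifth decile 34.7% of peaks were kept with R339Q FLAG (26 of 75) and 39.1% without it, against 32.8% (22 of 67) and 25.7% in the weakest. With both groups of WT FLAG sites weighted to the same deciles, the difference was 28.0 points, from 91.4% with R339Q FLAG and 63.4% without it. Restricted to WT peaks that the S354F and R377C lists, whose names carry b1 and b2 together, also held, the shares were 97.0% with R339Q FLAG (6105 of 6294) and 74.0% without it (2407 of 3253).

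**Figure D2:**
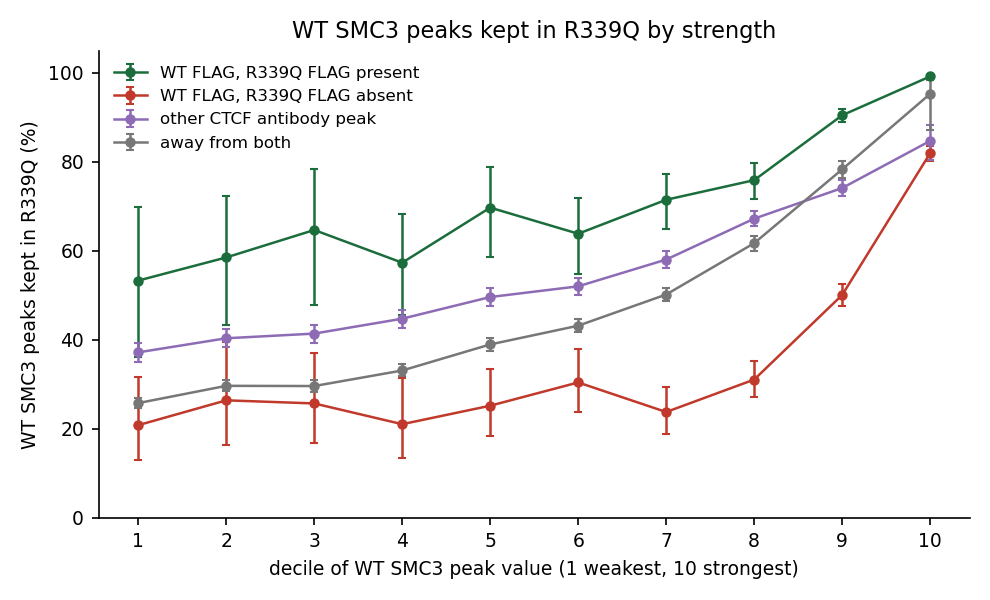
Share of WT SMC3 peaks kept in R339Q cells (vertical axis, %) against the decile of the WT SMC3 value (horizontal axis), for WT FLAG sites with R339Q FLAG (green), WT FLAG sites without it (red), other CTCF antibody peaks (purple) and peaks away from both (grey), with 95% Wilson intervals. In the ninth decile 90.5% of peaks were kept with R339Q FLAG and 50.1% without it, and peaks away from CTCF, at 78.3%, lay between them.

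Where R339Q FLAG was missing from a WT FLAG site, cohesin was kept less often than at cohesin peaks away from CTCF weighted to the same deciles of strength. In the ninth decile the shares were 50.1% at WT FLAG sites without R339Q FLAG (797 of 1591) and 78.3% away from CTCF (1338 of 1708). Standardised to the strength of the sites without R339Q FLAG, the kept share was 57.2% at those sites, 73.8% at other CTCF antibody peaks and 77.4% away from both. Without that weighting the order is the other way round, because 57.2% stands above 39.6%. The standardised difference from peaks away from CTCF was -20.2 points. It was -3.20 points when a reciprocal overlap of 50% defined kept peaks, FLAG status and class together, and -18.9 points when it defined kept peaks alone. The match in strength was loose in the strongest decile, which held 2031 sites without R339Q FLAG and 64 peaks away from CTCF. That decile ran to a value of 43.97, and peaks away from CTCF reached at most 9.85.

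Cohesin was kept most often under the strongest R339Q FLAG peaks, with WT SMC3 strength not held fixed. Of WT SMC3 peaks at WT FLAG sites with R339Q FLAG, 97.5% were kept where the R339Q FLAG peak was in the strongest quartile of its list (3682 of 3778), against 84.0% in the second weakest quartile (794 of 945) and 90.6% in the weakest (686 of 757). The order was therefore not the same at the low end. At sites without R339Q FLAG, SMC3 was kept at 71.8% of those in the strongest quartile of the WT FLAG list (654 of 911), against 53.3% in the weakest (695 of 1304).

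Single sites show the range. The strongest WT SMC3 peak of all lay between genes at chr2:77341190-77342747, 60.6 kb from Sestd1. Its SMC3 peak ranked 310 of 94978 by value in R339Q cells and 1 of 71962 in WT cells, and its FLAG peak ranked 2416 of 18808 in R339Q and 141 of 15392 in WT. A site inside Pink1, which encodes a kinase of mitochondrial quality control (chr4:138319492-138320797), ranked 88 for R339Q SMC3 and 3 for WT SMC3. A site 28.4 kb from Dtnbp1 (chr13:45030514-45031470) ranked 173 for R339Q SMC3 and 4 for WT SMC3. At these 3 sites both FLAG lists held a peak, and SMC3 stood near the top of both SMC3 lists.

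The 6 strongest SMC3 peaks lost together with R339Q FLAG ranked between 440 and 2139 in WT, and each was held by at least 7 of the 8 other mutants. Of all 2611 peaks lost at WT FLAG sites, 30.5% were held by 7 or 8 of them (796 peaks), so these sites do not stand for the whole. At chr6:3447395-3447779, 9.31 kb from Hepacam2, SMC3 was absent in R339Q and ranked 440 in WT, and the nearest R339Q SMC3 peak lay 82011 bp away. Around the other 5 sites that distance was between 852 bp, near Kctd15, and 94001 bp, near Gm7361. At chr1:55383130-55383562, 19.3 kb from Boll, a gene of germ cell development, SMC3 was absent in R339Q and ranked 1076 in WT, with an R339Q SMC3 peak 1773 bp away. At chr11:73000874-73001485, inside P2rx1, an ATP-gated ion channel gene, 1.73 kb from its start, SMC3 was absent in R339Q and ranked 2055 in WT. These 3 sites, and those 21.2 kb from Scd1 and 20.3 kb from Kctd15, held SMC3 in all 8 other mutants. Next in rank, a site 17.7 kb from Gm7361 held SMC3 in 7 of them, with Q418R the exception.

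Some sites went against the pattern. Beside Gm5150 (chr3:16024783-16025680) SMC3 was absent in R339Q cells and ranked 2886 in WT, although FLAG ranked 7085 of 18808 in R339Q and 55 of 15392 in WT. Sites near Anxa1, encoding the phospholipid-binding annexin A1, and S100a9, encoding a calcium-binding protein of myeloid cells, also lost SMC3 with R339Q FLAG present, and at the S100a9 site an R339Q SMC3 peak lay 259 bp away. The reverse was seen at chr12:86795129-86796870, 26.1 kb from Lrrc74a, where R339Q FLAG was absent and SMC3 ranked 1552 in R339Q and 2 in WT. It was also seen near Fnbp1l, inside Col18a1 and at a site whose nearest coding gene was Arpp21, which ranked 2308, 1008 and 343 for R339Q SMC3 and 5, 7 and 17 for WT SMC3. All 4 held SMC3 in every other mutant.

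Outside WT FLAG sites the strongest lost peaks were weaker. At other CTCF antibody peaks the 4 strongest lay near Olfr822, Ildr2 and Akr7a5 and inside Ap2s1, and ranked between 2752 and 3214 in WT. Away from CTCF the 4 strongest lay inside Pigk and Stard13 and near Pigm and Rere, and ranked between 6436 and 7180. These 8 sites had no SMC3 in R339Q cells, and between 5 and 8 of the other mutants held SMC3 there.

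Gained cohesin peaks were many, weak and mostly away from CTCF. Of 94978 R339Q SMC3 peaks 56726 were gained (59.7%, 59.4 to 60.0), which is the background for the shares that follow. The gained share was 3.80% at WT FLAG sites (389 of 10240), 57.5% at other CTCF antibody peaks (17487 of 30404) and 71.5% away from both (38850 of 54334). Among gained peaks 1.32% were in the strongest decile of the R339Q list, against 22.9% of the peaks shared with WT. Their median width was 146 bp, against 248 bp for shared peaks. R339Q FLAG lay under 5.15% of gained peaks (2919 of 56726). By class, it lay under 74.3% of gained and 70.6% of shared peaks at WT FLAG sites. At other CTCF antibody peaks the shares were 13.7% of gained and 19.6% of shared peaks, and away from both 0.607% and 1.74%.

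**Figure D3:**
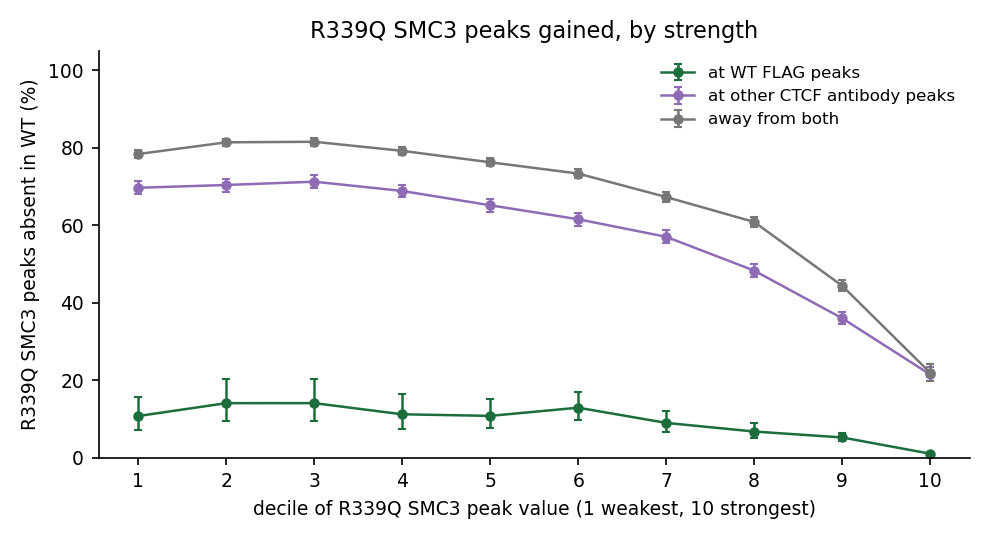
Share of R339Q SMC3 peaks with no WT SMC3 peak (vertical axis, %) against the decile of the R339Q SMC3 value (horizontal axis), by class of site, with 95% Wilson intervals. In the strongest decile 1.07% of peaks at WT FLAG sites were gained, 21.5% at other CTCF antibody peaks and 21.9% away from both, and in the weakest decile 10.8%, 69.7% and 78.4%.

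R339Q FLAG peaks outside the WT FLAG list held cohesin more often in R339Q cells than in WT cells where a CTCF antibody peak was present. Of 18808 R339Q FLAG peaks 10793 had no WT FLAG peak (57.4%), and 36.4% of these held SMC3 in R339Q cells, against 31.3% in WT cells. At CTCF antibody peaks the shares were 42.8% in R339Q and 33.7% in WT (3431 and 2697 of 8014). Off them they were 17.8% in R339Q and 24.5% in WT (495 and 680 of 2779), a difference of -6.66 points that did not hold its direction: it was 2.51 points in the upper 50% of every list and 0.00815 points with a reciprocal overlap of 50%. Nor was SMC3 at these sites highest in R339Q: at the 8014 peaks with a CTCF antibody peak other mutants held SMC3 at between 18.8% (Q418R) and 56.3% (R448Q), with 52.7% in R342C. Of the SMC3 lists that of Q418R was the smallest, with 42030 peaks, and that of R448Q the largest, with 153647. The R339Q FLAG peaks in the strongest quartile of their list stood apart, with SMC3 at 67.5% in R339Q and 37.0% in WT (509 and 279 of 754), while in the weakest quartile the shares were 33.6% in R339Q and 36.9% in WT. With equal numbers of SMC3 peaks taken from each list the difference over all 10793 peaks was 1.18 points, and with a reciprocal overlap of 50% it was 0.687 points, against 5.09 points here.

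The converse sites had less cohesin. Of 15392 WT FLAG peaks 7216 had no R339Q FLAG peak (46.9%), and SMC3 was present at 40.2% of these in R339Q cells and at 69.8% in WT cells (2898 and 5039 of 7216). At the 8015 R339Q FLAG peaks shared with WT FLAG, SMC3 was present at 88.7% in R339Q and at 91.8% in WT.

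The strongest gained peaks with R339Q FLAG lay at CTCF antibody peaks without WT FLAG. At chr13:59348569-59348767, 101 kb from Agtpbp1, SMC3 ranked 560 of 94978 in R339Q and was absent in WT, and R339Q FLAG ranked 920 of 18808. Sites inside Lrrc36 (chr8:105438880-105439187) and Man1c1 (chr4:134701646-134702559) ranked 831 and 980 for R339Q SMC3, with no WT SMC3. These 3 sites held SMC3 in 2, 3 and 5 of the other 8 mutants. Among gained peaks without a CTCF antibody, R339Q FLAG or WT FLAG peak the strongest lay inside Agrn, the gene of the synapse organiser agrin, inside Alk, a receptor tyrosine kinase gene, and over Sall1, a zinc-finger gene expressed in stem cells. The peak at Sall1 (chr8:89042925-89043493) lay 19 bp from the start, ranked 4226 in R339Q and was absent in WT, with the nearest WT SMC3 peak 1546 bp away. Gained peaks with R339Q FLAG and no CTCF antibody peak were led by sites near Lclat1 and Srsf7 and inside Hhat, which ranked between 4639 and 8835. These last 6 sites held SMC3 in between 6 and 8 of the other 8 mutants, so most mutant lists shared them and the WT list lacked them. FLAG of 5 other mutants was present at the Alk site.

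With an overlap of 1 bp, cohesin near gene starts was kept more often than elsewhere, in each class except WT FLAG sites with R339Q FLAG. Within 1 kb of an annotated start 58.3% of WT SMC3 peaks were kept (5328 of 9134), against 48.8% in gene bodies and 50.3% between genes. Away from CTCF the shares were 51.3% at starts, 38.1% in gene bodies and 37.8% between genes, and at other CTCF antibody peaks they were 60.6%, 51.4% and 51.9%. The difference between starts and gene bodies over all peaks, 9.55 points, was 3.57 points in the upper 50% of every list. At WT FLAG sites without R339Q FLAG the shares were 67.3%, 54.6% and 57.7%, and at WT FLAG sites with it they were 92.5%, 93.0% and 94.1%. Where R339Q FLAG was present, then, the 3 shares lay within 2 points of each other. Chromosome 18 was left out here because the table of starts used has no rows for it, and exons and introns were not told apart.

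Across chromosomes the share of WT SMC3 peaks kept ran from 43.4% on chromosome 3 to 56.4% on chromosome 11. At WT FLAG sites it ran from 62.3% on the X chromosome (154 peaks) to 84.5% on chromosome 17. The X chromosome held 0.227% of the R339Q SMC3 peaks and 0.320% of the WT SMC3 peaks.

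Around genes of the pluripotency network most WT SMC3 peaks were kept, with WT SMC3 strength not held fixed in this or the other gene groups. The list of 25 genes had 295 WT SMC3 peaks within 10 kb, of which 230 were kept (78.0%), against 50.5% of all WT SMC3 peaks. The same windows held 451 R339Q SMC3 peaks, of which 243 were gained, against 56726 of 94978 over the whole R339Q list. All WT peaks were kept around Nanog (17 of 17), Klf4 (16 of 16) and Tbx3 (22 of 22), transcription factors that hold the stem cell state. Esrrb, an orphan nuclear receptor of that network, kept 46 of 56, and Pou5f1, which encodes OCT4, kept 11 of 13. Prdm14, a repressor of differentiation, kept 3 of 11. Most of these peaks were not CTCF sites: 195 of the 295 lay away from CTCF, and 152 of those were kept. The strongest peak, 6.07 kb from Tbx3, ranked 775 in R339Q and 422 in WT. The strongest lost one lay 9.03 kb from Sox2, the partner of OCT4 (chr3:34640749-34640960), where SMC3 was absent in R339Q and ranked 13492 in WT, and FLAG ranked 4992 in R339Q and 546 in WT. Within 50 kb of the same genes the kept share was 67.3% in R339Q. Shares above the background were also seen in other mutants. Of the 295 peaks within 10 kb, 262 were kept in R342C, 218 in S354F and 122 in Q418R. Over all WT SMC3 peaks those mutants kept 73.3%, 53.7% and 29.3%.

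Developmental gene groups differed within 10 kb, less so within 50 kb. Gained peaks within 10 kb were 80 of 129 R339Q SMC3 peaks at Hox clusters and 91 of 133 at neural regulators. At mesoderm and endoderm regulators they were 73 of 112. Around the Hox clusters, which pattern the body axis, 47 of 63 WT SMC3 peaks were kept (74.6%), among them all 13 at WT FLAG sites, of which 8 had no R339Q FLAG. The strongest lay over Hoxa5 and ranked 996 in R339Q and 295 in WT, and around Hoxc9 all 10 were kept, whereas around Hoxa4 none of 4 was. Around neural regulators 38 of 53 were kept (71.7%), with all 8 around Otx2, a forebrain homeobox gene. Around mesoderm and endoderm regulators 33 of 74 were kept (44.6%), with 0 of 4 around Tbx5, a heart and limb factor. Within 50 kb the shares of both lineage groups came close, at 56.9% for neural and 54.1% for mesoderm and endoderm regulators. The strongest mesoderm and endoderm peak, 7.34 kb from the trophectoderm gene Cdx2, was kept without R339Q FLAG and ranked 9814 in R339Q and 1304 in WT.

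Clustered protocadherins, cell-surface proteins whose promoters are chosen through CTCF and cohesin, kept 27 of 51 WT SMC3 peaks (52.9%). Of their 15 peaks at WT FLAG sites 13 had no R339Q FLAG, and 7 of those 13 were kept. The strongest peak of the clusters lay in the Pcdhg cluster (chr18:37751463-37751932), had R339Q FLAG and ranked 3372 in R339Q and 2537 in WT. The strongest lost one lay over Pcdhb3 (chr18:37300633-37300939), with SMC3 and FLAG absent in R339Q, WT SMC3 ranking 11027 and WT FLAG 1126. An R339Q SMC3 peak lay 173 bp from it.

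Imprinted genes kept 32 of 66 (48.5%). The strongest peak, 4.86 kb from the growth inhibitor gene Cdkn1c, ranked 1071 in R339Q and 1167 in WT. Plagl1, a zinc-finger gene of the imprinted network, kept 2 of 8, and the strongest lost peak of the group lay 3.07 kb from its start (chr10:13086902-13087763), with SMC3 and FLAG absent in R339Q, WT SMC3 ranking 6143 and WT FLAG 2940. The X inactivation centre had 4 WT SMC3 peaks, of which 3 were kept.

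Genes for cohesin, its regulators and CTCF kept 28 of 69 (40.6%, 29.8 to 52.4). Without Pds5b the others kept 27 of 51 (52.9%), close to the 50.5% of all peaks. Around Rad21, encoding the subunit that closes the ring, all 5 were kept, as were all 8 around Ctcfl, the testis paralogue of Ctcf. Around Pds5b, encoding a regulator that rides on cohesin, 1 of 18 was kept, and around Wapl, encoding the factor that opens the ring, 0 of 7. The loss at Pds5b was not seen in R339Q alone: the other 8 mutants kept between 0 and 4 of the 18 peaks. At Wapl they kept between 1 and 5 of the 7. These counts all use the same WT list. Pds5b and Wapl were singled out after their values were seen.

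**Figure D4:**
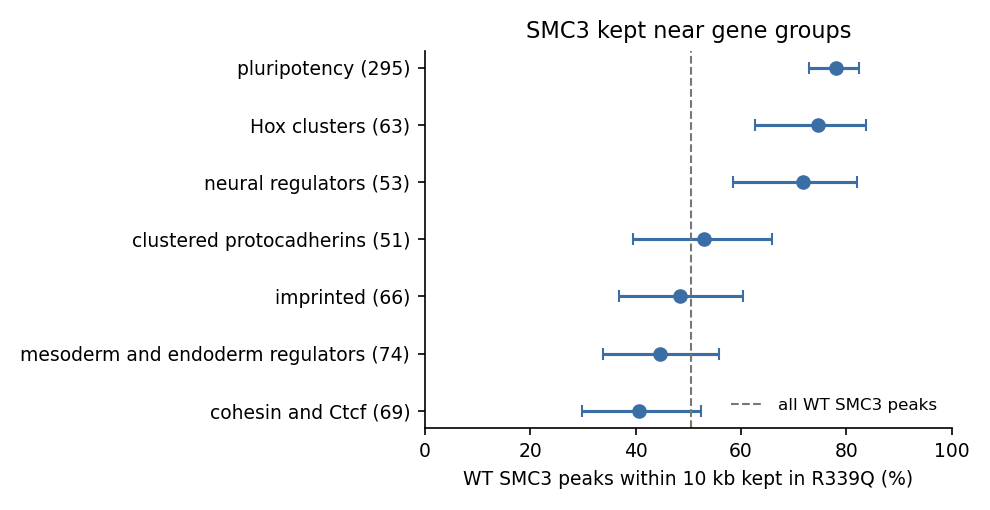
Share of WT SMC3 peaks kept in R339Q cells (horizontal axis, %) within 10 kb of the genes of 7 groups (rows, with the number of WT peaks in brackets), as points with 95% Wilson intervals, and the share over all WT SMC3 peaks (dashed line). Pluripotency genes, Hox clusters and neural regulators lay at 78.0%, 74.6% and 71.7%, above the line at 50.5%, and the group of cohesin genes and Ctcf lay at 40.6% (52.9% without Pds5b). WT SMC3 strength was not held fixed.

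Values of 3 other mutants were set beside those of R339Q: R342C, which changes a residue close to R339, and S354F and Q418R. All 4 comparisons share the WT lists, so their values are set side by side. The SMC3 lists differed in size, with 94978 peaks in R339Q, 112747 in R342C, 80645 in S354F and 42030 in Q418R. The largest list was that of R448Q, with 153647 peaks. Chromosome 6 held 3.04% of the Q418R SMC3 peaks, against 10.4% in R339Q. The part of list size in the lost and kept shares was not tested. Lost peaks made up 49.5% of the WT SMC3 list in R339Q, 26.7% in R342C, 46.3% in S354F and 70.7% in Q418R, and in the other 5 mutants 42.2% (K365T), 39.3% (R377C), 31.0% (R377H), 22.2% (R448Q) and 39.8% (H455R). At WT FLAG sites with the mutant's own FLAG peak, SMC3 was kept at 93.4% in R339Q, 98.7% in R342C, 84.6% in S354F and 89.2% in Q418R. At WT FLAG sites without it, SMC3 was kept at 57.2% in R339Q, 87.5% in R342C, 28.9% in S354F and 47.8% in Q418R. Weighted to the same strength, the difference between sites with and without own FLAG was 28.0 points in R339Q, 5.14 in R342C, 41.4 in S354F and 30.8 in Q418R, and between 4.50 and 16.2 points in the other 5 mutants. The lists with the largest differences, R339Q, S354F and Q418R, all carry b2 or b3 in their SMC3 names. R342C and the other 5 mutants carry b1 alone, except R377C, which carries b1 and b2 and had 9.26 points. The part of the tag in this was not tested.

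**Figure D5:**
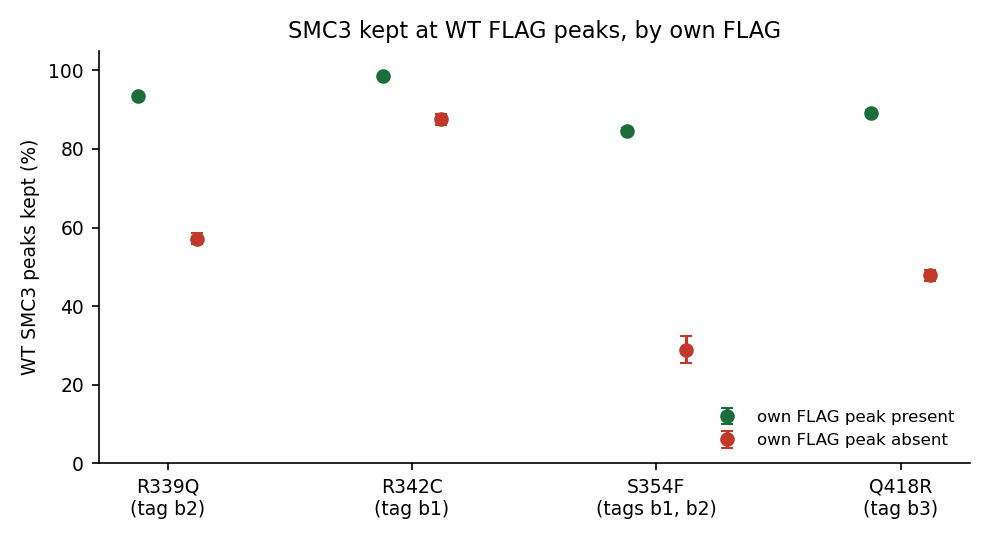
Share of WT SMC3 peaks at WT FLAG sites kept (vertical axis, %) in R339Q, R342C, S354F and Q418R cells, at sites with the mutant's own FLAG peak (green) and without it (red), with 95% Wilson intervals and the library tag of each SMC3 list under its name. In R339Q the shares were 93.4% and 57.2%, and in R342C 98.7% and 87.5%.

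Sites where the FLAG list of one mutant held a peak and that of the other did not give a closer view. At 3032 WT SMC3 peaks where WT FLAG and R342C FLAG were present and R339Q FLAG was not, SMC3 was kept at 64.9% in R339Q cells and at 97.1% in R342C cells. At the 375 peaks with R339Q FLAG and no R342C FLAG it was kept at 74.4% in R339Q and at 94.4% in R342C. R342C cells thus had the higher share in both kinds of site. S354F and Q418R had the largest differences by own FLAG, so a split of the same sites by own FLAG was likely to return that pattern. In both comparisons the share was higher in the mutant whose FLAG was present, and no conclusion is drawn from this. The remaining mutants were not compared in this way. Among them H455R kept SMC3 at 93.4% of WT FLAG sites with its own FLAG (1191 of 1275) and at 76.6% without it (8492 of 11088). With R339Q FLAG and no S354F FLAG (136 peaks) SMC3 was kept at 74.3% in R339Q and 25.0% in S354F, and with S354F FLAG and no R339Q FLAG (4431 peaks) at 59.4% in R339Q and 76.6% in S354F. With R339Q FLAG and no Q418R FLAG (1760 peaks) SMC3 was kept at 87.1% in R339Q and 51.9% in Q418R, and with Q418R FLAG and no R339Q FLAG (2378 peaks) at 65.6% in R339Q and 81.6% in Q418R. The SMC3 names carry tag b2 in R339Q, b1 in R342C, b1 and b2 in S354F and b3 in Q418R, and the part of the tag in these differences was not tested.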

How the data were processed

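SMC3, FLAG and CTCF were measured by ChIPmentation. Groups came from the labels. The tools named in the submitters' processing notes are deepTools, MACS2, Bowtie2 and Trim Galore, with mm10 as the build (no version or setting is given there). The deposited lists have 5 columns without a header, and the last one is a score from peak calling by the authors. Its exact measure is unknown, so values and ranks were compared only within a list. The SMC3 lists lack 1.65% (R339Q) and 1.63% (WT) of the running peak numbers, so peaks had been removed by a filter that is not stated, and a strong peak may be missing for that reason. FLAG rows that repeat an interval were merged, keeping the highest value. The names in the R339Q and WT FLAG lists carry other replicate numbers than the titles, so which libraries they hold rests on the titles.

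Overlaps of at least 1 bp were computed with Python 3.11.15, numpy 2.4.6 and pandas 2.3.3 and checked against bedtools 2.31.1 and on simulated data, and figures were drawn with matplotlib 3.10.9. Standardised shares weight deciles of the WT SMC3 score alike in the groups compared. Gene spans (34614) were taken from RefSeq, assembly GRCm38.p6, and starts and promoter sequences from RefSeq's promoter table, in place of the gene ends first planned. Sequences of the peaks themselves were not analysed here. A site is named by its nearest protein-coding gene.

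Named sites are, by SMC3 value, the 3 strongest kept with R339Q FLAG at WT FLAG sites, the 6 strongest lost without it, the 3 strongest lost with it, the 4 strongest kept without it, and the 5 strongest lost in R339Q and held by the 8 other mutants. They are also the 4 strongest lost in each other class, 3 gained in each of 3 classes, and for each gene list its strongest and strongest lost peak within 10 kb. Printed promoters have the core letters once, and those shown, like the other genes named, were chosen after their values were seen. The gene symbols Xite, Linx and Tbxt had no match. The members and gene lists were chosen with earlier results of these data known. Alternatives were a reciprocal overlap of 50%, a match within 500 bp, the upper 50% of every list, equal numbers of SMC3 peaks, the treated CTCF antibody list alone and a 50 kb window. Chosen after seeing the data were 20 strength bins, WT peaks also in the S354F and R377C lists, WT peaks with a treated CTCF antibody peak, a reciprocal overlap for kept peaks alone, the cohesin list without Pds5b, and 3 results: R339Q-only FLAG peaks at and off CTCF antibody peaks, starts against gene bodies, and the standardised comparison with peaks away from CTCF.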

Additional observations from a re-analysis of the deposited data

How the results depend on the processing

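No paired analysis was possible because each list pools its replicates and no result comes from a test. The sign changed for 1 result, though the intervals of the changed values spanned both signs. The difference in SMC3 at R339Q-only FLAG peaks off CTCF antibody peaks, -6.66 points, was 0.00815 with a reciprocal overlap of 50% and 2.51 in the upper 50% of every list. It was -0.714 within 500 bp and -9.93 with equal numbers. With a reciprocal overlap of 50%, a match within 500 bp, the upper 50% of every list and equal numbers of SMC3 peaks, in that order, the kept share of all WT SMC3 peaks was 25.6%, 62.3%, 53.4% and 44.5%, against 50.5%. At WT FLAG sites it was 51.4%, 82.0%, 82.1% and 76.2%, against 78.9%. At other CTCF antibody peaks it was 33.4%, 65.6%, 53.8% and 46.4%, against 52.9%. Away from both it was 21.5%, 50.4%, 40.4% and 32.9%, and 41.4% with the treated CTCF antibody list alone, against 39.6%. The gained share was 80.6%, 42.6%, 57.6% and 54.2%, against 59.7%. The difference between WT FLAG sites with and without R339Q FLAG was 30.9, 33.0, 28.9 and 38.6 points, against 36.2. It was 28.0 points over deciles, 25.7 over 20 bins and 23.0 in WT peaks that the S354F and R377C lists also held. The difference in SMC3 at all R339Q-only FLAG peaks was 0.687, 7.89, 10.3 and 1.18 points, against 5.09, and at CTCF antibody peaks 3.44, 10.5, 11.0 and 5.03 points, against 9.16. The difference between starts and gene bodies was 2.44 with either reciprocal rule, 12.6 within 500 bp and 3.57 in the upper 50%, against 9.55 points. The standardised difference between WT FLAG sites without R339Q FLAG and peaks away from CTCF, -20.2 points, was -3.20 with a reciprocal overlap, -15.9 within 500 bp and -25.6 over 20 bins. The value over 20 bins leaves out the strongest WT FLAG sites, because bins without peaks away from CTCF were dropped. Those peaks reached a value of at most 9.85. Within 50 kb the kept share was 67.3% at pluripotency genes, 56.9% at neural regulators and 54.1% at mesoderm and endoderm regulators, against 78.0%, 71.7% and 44.6% within 10 kb, so the last moved across the 50.5% of all peaks. The reciprocal overlap also changed the classes: peaks at other CTCF antibody peaks numbered 5907, against 22226. With it for kept peaks alone and classes by 1 bp, the kept share was 25.6% of all, 51.0% at WT FLAG sites, 24.5% at other CTCF antibody peaks and 17.8% away, the gained share 80.6%, and the difference by R339Q FLAG 39.2 points. The cause was not tested. Depth is unknown, so weak peaks absent from a list may lie under its threshold.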
